A study of Mus musculus with 47 samples.

Results

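The 9 genes of microglia and other myeloid cells in this account were taken by symbol from a named list and read from 47 libraries: Cx3cr1, P2ry12, Csf1r, Trem2, Tyrobp, Ctss, Cd68, Lyz2 and Aif1. They are 9 of the 57180 genes in the table, and each symbol matched 1 identifier. Polyadenylated RNA was sequenced from whole retinas of mice of the inbred strain C57BL/6 at an age of 20 months (aged) or 6 weeks (young), housed in a light-dark cycle. Sampling was spaced by 4 h over 6 zeitgeber times (ZT), hours counted from lights on. The light phase was sampled at ZT2, ZT6 and ZT10, and the dark phase at ZT14, ZT18 and ZT22. Every combination of age and time had 4 libraries except aged ZT18 with 3, which gives 23 aged and 24 young libraries. The labels state that 4 mice of each age were taken at each time and that right eyes were used, and they give no sex and no sequencing batch.

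Microglia are the resident macrophages of the retina. In the healthy tissue they tile the plexiform layers with fine processes and are held in a surveying state by signals from neurons and glia. Fractalkine reaches them through Cx3cr1, nucleotides through P2ry12, and the growth factors CSF1 and IL-34, on which their survival depends, through Csf1r. Trem2 senses lipids and debris and signals through the adaptor Tyrobp, while Ctss, Cd68 and Lyz2 belong to the machinery that digests what the cells have taken up, and Aif1 encodes the actin-bundling protein IBA1 by which they are commonly stained. Several of these genes are also expressed by other macrophages, and Lyz2 by neutrophils and monocytes as well.

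The myeloid transcription factor PU.1 binds a purine-rich element, the PU box. The promoters of the 3 digestive genes are shown, each from 250 bases before to 50 bases after the transcription start in RefSeq (GRCm38.p6). In them the hexamer GAGGAA, or its complement TTCCTC, is in capitals.
Lyz2, chr10:117282223-117282522, minus strand: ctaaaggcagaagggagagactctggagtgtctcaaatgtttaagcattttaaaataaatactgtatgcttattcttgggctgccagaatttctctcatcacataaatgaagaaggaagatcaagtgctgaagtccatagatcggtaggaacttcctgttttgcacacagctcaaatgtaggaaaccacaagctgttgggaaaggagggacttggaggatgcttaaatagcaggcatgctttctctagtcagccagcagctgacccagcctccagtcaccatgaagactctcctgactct
Cd68, chr11:69666121-69666420, minus strand: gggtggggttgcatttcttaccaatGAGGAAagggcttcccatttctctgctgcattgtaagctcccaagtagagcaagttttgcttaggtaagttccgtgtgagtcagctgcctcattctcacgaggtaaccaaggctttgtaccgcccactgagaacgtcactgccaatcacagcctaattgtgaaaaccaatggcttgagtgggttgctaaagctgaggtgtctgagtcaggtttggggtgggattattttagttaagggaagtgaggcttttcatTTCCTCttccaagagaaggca
Ctss, chr3:95526536-95526835, plus strand: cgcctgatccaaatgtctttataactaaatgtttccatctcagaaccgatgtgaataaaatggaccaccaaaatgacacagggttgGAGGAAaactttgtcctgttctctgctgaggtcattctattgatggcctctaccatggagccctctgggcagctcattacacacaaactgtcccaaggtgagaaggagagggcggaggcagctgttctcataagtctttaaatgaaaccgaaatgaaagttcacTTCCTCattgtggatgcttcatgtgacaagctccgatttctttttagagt
Of 7 genes of the list with an entry in that table, 4 held the hexamer on either strand, against 28.3% of all 32851 promoters of the same length. Cd68 held it at -225 on the coding strand and at 30 on the other strand, and Ctss at -164 on the coding strand and at 1 on the other, counted from 1 at the start site. Aif1 held it at -7 and Trem2 at -40, both on the other strand. These letters did not occur in the windows of Lyz2, Cx3cr1 and P2ry12. A match is a description of the sequence only.

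Levels are in RPKM, that is reads scaled to exon length in kilobases and to a library of 1 M (mega) reads. The depth of a library recovered from them lay between 32.0 and 55.5 M reads, and its median was 37.0 M in aged and 37.2 M in young. All 9 genes were weakly expressed, while Glul, the glutamine synthetase gene of Müller glia, had a median of 414 RPKM in aged and 418 RPKM in young retinas. Per length of transcript, Ctss was highest, with a median of 7.79 RPKM in aged and 6.03 RPKM in young, and Aif1 was lowest, with 0.344 RPKM in aged and 0.205 RPKM in young. In reads, the median library held 398 Ctss reads in aged and 308.5 in young, but 21 Aif1 reads in aged and 11.5 in young. Without the 2 libraries described next, the error of counting alone came to 22.1% of the Aif1 mean in aged and 28.9% in young, and to 8.64% of the Lyz2 mean in aged and 12.5% in young. The coefficient of variation between libraries was 48.7% in aged and 62.4% in young for Aif1, and 57.0% in aged and 34.6% in young for Lyz2.

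1 library of each age stood apart, young ZT10 replicate 4 in all of the 9 genes and aged ZT6 replicate 3 in some of them. In aged ZT6 replicate 3, Tyrobp had 0 reads and was listed at 0 RPKM, against 2.76 to 3.95 RPKM in the other 3 libraries of its group. Cd68 was at 0.169 RPKM there and Ctss at 2.74 RPKM, each below all 45 libraries outside the pair, while Cx3cr1, at 2.18 RPKM, was above all of them. P2ry12, Csf1r, Trem2, Lyz2 and Aif1 lay within the range of those 45 libraries, at 64.9% to 107% of the median of the rest of their group. In young ZT10 replicate 4, each of the 9 genes was below all 45. P2ry12 had 0 reads, Cx3cr1 was at 2.05% of the median of the other 3 libraries of its group, Ctss at 3.83%, and Lyz2, the least reduced, at 49.2%. The reduction in that library took in Glul, at 49.8 RPKM against 377 to 459 RPKM in the rest of the group. Transcript length moved with both libraries. Relative to the rest of its group, aged ZT6 replicate 3 had a median log2 difference of -0.49 for genes under 1 kb of exon and -0.04 for genes over 4 kb, and young ZT10 replicate 4 had 0.19 and -0.60. The part of length in the low values was not tested. Results are given below with all 47 libraries and, where these libraries touch them, with the 45 others.

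**Figure D1:**
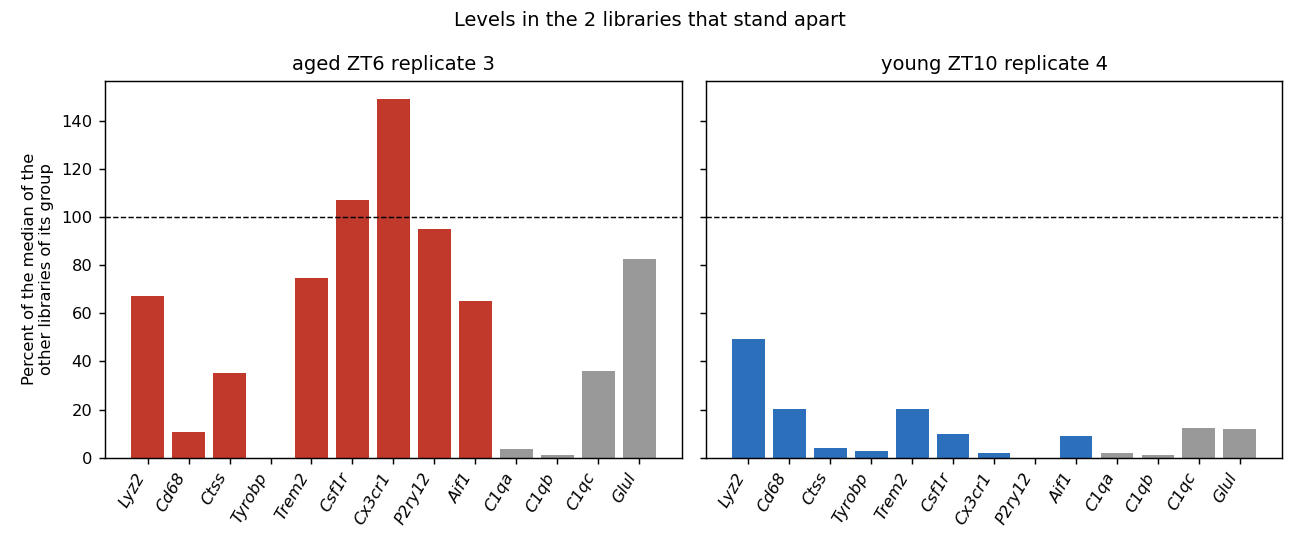
RPKM of each gene in aged ZT6 replicate 3 (left) and young ZT10 replicate 4 (right), as a percentage of the median of the other 3 libraries of the same group, which the dashed line marks at 100%. Coloured bars are the 9 genes and grey bars are other genes named for comparison. Tyrobp is at 0 in the aged library with Cx3cr1 at 149% beside it, and the 9 genes lie between 0 and 49.2% in the young library.

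Aged retinas held more Lyz2 transcript than young ones over the 6 times. Cd68 was also called higher, but narrowly, and no gene of the list was called lower, where 1.83% of all tested genes were. Lyz2, the lysozyme of myeloid cells, and Cd68, a heavily glycosylated protein of late endosomes and lysosomes, were the 2 that rose of the 7 genes that passed the filter on low values (0.5 RPKM in 12 libraries). Rises at the same threshold, an adjusted p under 0.05 in limma, took 2.41% of all 15321 tested genes. All 7 had a difference above 0, with a median of 0.37 on the log2 scale, against 41.6% of all tested genes above 0 and a median over all of -0.019. Without the pair of libraries that stand apart, Ctss and Tyrobp also rose, giving 4 of 7, where 7.24% of all tested genes rose. All 7 were again above 0, as were 40.2% of all tested genes, and the median of the 7 was 0.366 where that of all genes was -0.025. In whole tissue, more cells of a type and more RNA per cell cannot be told apart.

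Lyz2, Cd68 and Ctss come first, as the genes of digestion. Lyz2 (ENSMUSG00000069516) ran from 0.647 to 7.03 RPKM in aged retinas with a median of 2.69, and from 0.520 to 2.62 RPKM in young retinas with a median of 1.31. The ranges overlap, but the upper part of the aged range lies above every young library. It averaged 3.10 ± 1.80 RPKM in aged (SD, n = 23) and 1.37 ± 0.508 RPKM in young (SD, n = 24). The difference on log2(RPKM + 0.5) was 0.84 ± 0.16 (SE), with an adjusted p of 0.000224 in limma with Benjamini-Hochberg adjustment over all tested genes. On that scale it was the only gene of the list also past the study's fold of 1.5, which with that p took 0.424% of all genes upward. By the ratio of mean RPKM without the pair of libraries, Cd68 was past that fold too, at 1.71, beside 2.26 for Lyz2. The values were 0.83 ± 0.16 and 0.000208 without the pair of libraries, and leaving out any single library kept the adjusted p between 2.26e-05 and 0.000516. Lyz1, a close paralog with which reads could be shared, did not exceed 0.193 RPKM in aged and 0.088 RPKM in young libraries.

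Cd68 (ENSMUSG00000018774) ran from 0.169 to 3.34 RPKM in aged retinas with a median of 1.12, and from 0.172 to 1.33 RPKM in young retinas with a median of 0.679. It averaged 1.23 ± 0.676 RPKM in aged (SD, n = 23) and 0.720 ± 0.293 RPKM in young (SD, n = 24). The difference was 0.45 ± 0.13 on the log2 scale (SE), and limma gave it an adjusted p of 0.0448. Leaving out any of 28 single libraries ended that call (adjusted p 0.0515 to 0.075), as did a fit with no filter on low values (0.0946), a replicate block (0.0507), a pseudocount of 0.1 (0.0768) and voom on recovered reads (0.103). The difference was 0.47 ± 0.12 with an adjusted p of 0.00507 without the pair of libraries. Ctss (ENSMUSG00000038642), the endosomal cysteine protease cathepsin S that trims the invariant chain, ran from 2.74 to 11.8 RPKM in aged with a median of 7.79, and from 0.212 to 9.33 RPKM in young with a median of 6.03. Its log2 difference was 0.44 ± 0.16 (SE) with an adjusted p of 0.13, and 0.37 ± 0.07 with an adjusted p of 0.000479 in limma without the pair of libraries. Leaving out either alone also gave a call, with an adjusted p of 0.0384 without aged ZT6 replicate 3 and 0.0322 without young ZT10 replicate 4.

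The lipid sensor and its adaptor come next. Tyrobp (ENSMUSG00000030579), the membrane adaptor DAP12 with an activation motif in its tail, ran from 0 to 4.52 RPKM in aged with a median of 2.39, and from 0.054 to 2.73 RPKM in young with a median of 1.60. Its difference was 0.37 ± 0.18 (SE) on the log2 scale with an adjusted limma p of 0.316. It was 0.40 ± 0.12 without the pair of libraries, with an adjusted p of 0.0177, and without aged ZT6 replicate 3 alone the adjusted p was 0.0351. Trem2 (ENSMUSG00000023992) reached 0.5 RPKM in 9 aged libraries and 1 young library and so did not pass the filter. It ran from 0.201 to 0.831 RPKM in aged with a median of 0.478, and from 0.0801 to 0.566 RPKM in young with a median of 0.353. In a fit with no filter its log2 difference was 0.25 ± 0.06 (SE) with an adjusted limma p of 0.017, and 0.24 ± 0.06 with 0.00703 without the pair of libraries. In those unfiltered fits 0.989% and 2.49% of 37323 genes rose. The pseudocount of 0.5 RPKM is as large as the Trem2 level, so its fold is understated: the ratio of mean RPKM was 1.44 without the pair.

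None of the 3 receptors of the surveying state passed. Cx3cr1 (ENSMUSG00000052336) ran from 0.981 to 2.18 RPKM in aged with a median of 1.42, and from 0.0241 to 1.60 RPKM in young with a median of 1.30. P2ry12 (ENSMUSG00000036353) ran from 0.526 to 1.62 RPKM in aged with a median of 0.970, and from 0 to 1.18 RPKM in young with a median of 0.877. Csf1r (ENSMUSG00000024621), the receptor tyrosine kinase for CSF1 and IL-34, ran from 1.37 to 3.07 RPKM in aged with a median of 2.31, and from 0.181 to 2.88 RPKM in young with a median of 2.06. For these 3 receptors the young minimum was the library that stands apart. Their log2 differences were 0.18 ± 0.09, 0.17 ± 0.09 and 0.18 ± 0.11 (SE) with adjusted limma p of 0.329, 0.381 and 0.434, for Cx3cr1, P2ry12 and Csf1r. They were, without the pair, 0.09 ± 0.06, 0.11 ± 0.07 and 0.09 ± 0.07, with adjusted p of 0.273, 0.294 and 0.396. A p above the threshold does not show that the receptors were alike in both ages, and whether their differences were smaller than that of Lyz2 was not tested.

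Aif1 (ENSMUSG00000024397) reached 0.5 RPKM in 6 aged and 3 young libraries and did not pass the filter. It ran from 0.148 to 0.770 RPKM in aged with a median of 0.344, and from 0.0235 to 0.771 RPKM in young with a median of 0.205, so that both ages reached the same top. In the fit with no filter the log2 difference was 0.21 ± 0.09 (SE) with an adjusted limma p of 0.356. In the annotation used for lengths, P2ry12 lies inside Med12l on the other strand and Csf1r overlaps Hmgxb3 on the other strand. The gene span of Cx3cr1 overlaps 9 other genes, some of them on its own strand. Ctss overlaps the processed pseudogene Hmgb1-ps5 on its own strand. Whether counting used the strand is not given in the sources used here, so reads of those neighbours cannot be told apart. Lyz2, Cd68, Tyrobp, Trem2 and Aif1 overlap no other gene there.

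**Figure D2:**
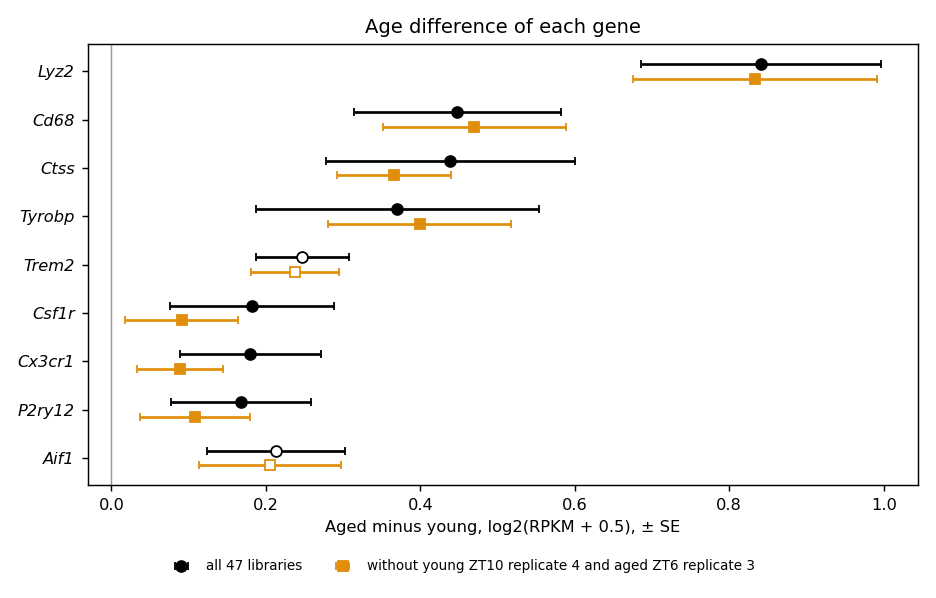
Aged minus young difference of each gene on log2(RPKM + 0.5), with SE, from limma over all 6 times. Circles use all 47 libraries and squares the 45 without aged ZT6 replicate 3 and young ZT10 replicate 4, and open symbols mark Trem2 and Aif1, which come from a fit with no filter on low values. Lyz2 lies at 0.84 and 0.83, Cd68, Ctss and Tyrobp between 0.37 and 0.47, and Csf1r, Cx3cr1 and P2ry12 at 0.17 or 0.18 with all libraries and between 0.09 and 0.11 without the pair.

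By time of day the largest estimates for Lyz2 and Cd68 were those at ZT14, but other times came close. At ZT14, Lyz2 was at 1.06, 4.88, 7.03 and 5.63 RPKM in aged libraries, against 1.36, 1.45, 1.47 and 1.11 RPKM in young ones. Aged replicate 1 lies below all 4 young libraries and the other 3 aged libraries lie above every young one. The same replicate was the lowest aged library at ZT14 for all 9 genes but Aif1, where it was second lowest. Its Cd68 was 0.524 RPKM beside 2.05, 3.34 and 1.01 RPKM in the other aged libraries, against 0.490, 0.682, 0.618 and 0.542 RPKM in young ones. The log2 difference at ZT14 was 1.27 ± 0.38 (SE) for Lyz2 and 0.87 ± 0.33 for Cd68, with adjusted limma p of 0.241 and 0.591. Lyz2 was at 1.23 ± 0.38 at ZT10, in the light, and Cd68 at 0.68 ± 0.36 at ZT18. The limma test of a change in age difference over the times gave an unadjusted p of 0.528 for Lyz2 and 0.558 for Cd68. A peak of the difference at ZT14 was thus not shown.

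No gene of the list passed at any single time with all libraries, where between 0.137% (ZT2) and 0.666% (ZT6) of genes rose, the share being 0.392% for ZT10, 0.222% for ZT14, 0.222% for ZT18 and 0.163% for ZT22. Neither did limma voom on recovered reads call any, while limma with array weights called P2ry12, Csf1r, Tyrobp and Ctss higher at ZT18. The share of all genes called with those weights was not computed, so these calls cannot be set against it. P2ry12 was at 0.41 ± 0.12 there with the weights and at -0.06 ± 0.22 without them (SE), over 3 aged libraries of 0.526 to 1.62 RPKM. At an unadjusted p under 0.05, 5 of the 7 were higher at ZT10 (Cx3cr1, P2ry12, Csf1r, Ctss and Lyz2), 2 at ZT14 (Lyz2 and Cd68) and 0 at the other 4 times. The share of all genes that were higher at that level was 8.81% for ZT10 and 4.17% for ZT14, and 1.91% for ZT2, 3.73% for ZT6, 2.40% for ZT18 and 2.34% for ZT22. ZT10 holds the young library that stands apart.

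Without the pair of libraries more genes reached that level at ZT14 than at any other time. At the same unadjusted level 6 of the 7 were then higher at ZT14 (all but Tyrobp), 3 at ZT18 (Tyrobp, Ctss and Cd68), 2 at ZT10 (Ctss and Lyz2), 1 at ZT6 (Lyz2) and 0 at ZT2 and ZT22. The shares of all genes were 9.14% for ZT14, 5.46% for ZT18, 4.06% for ZT10, 3.21% for ZT6, 4.01% for ZT2 and 5.12% for ZT22. The ZT10 difference of Ctss was 0.42 ± 0.18 in place of 1.20 ± 0.38, and that of Csf1r 0.30 ± 0.18 in place of 0.75 ± 0.24. The largest differences of Ctss then stood at ZT18 (0.66 ± 0.18, adjusted limma p 0.0887) and ZT14 (0.57 ± 0.17, adjusted p 0.0974). In the fit with no filter and without the pair, Trem2 passed at ZT14 (0.53 ± 0.12, adjusted limma p 0.0469), where 0.212% of genes rose, and with all libraries its adjusted p there was 0.166.

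At ZT22 the 3 receptors had estimates below 0, each of about the size of its SE. P2ry12 was at 0.718, 0.705, 0.772 and 0.563 RPKM in aged libraries, against 0.839, 0.942, 0.846 and 0.979 RPKM in young ones. Every aged library was below every young one, as for 3.56% of tested genes at that time. The log2 differences at ZT22 were -0.24 ± 0.21 for P2ry12, -0.22 ± 0.24 for Csf1r and -0.21 ± 0.21 for Cx3cr1 (SE), and none passed (limma, adjusted p 0.926 each). Csf1r was also below 0 at ZT2 (-0.13 ± 0.24) and P2ry12 at ZT18 (-0.06 ± 0.22). At ZT14 the 3 had differences of 0.37 ± 0.21, 0.37 ± 0.24 and 0.39 ± 0.21. The test of the change in age difference over the 6 times called no gene of the list and no gene of the table. At an unadjusted p under 0.05 it took 4.80% of all genes and none of the 7, the smallest being 0.0711 for P2ry12. In the fit with no filter that limma p was 0.0631 for Trem2 (adjusted 0.878), and 0.0407 without the pair (adjusted 0.971).

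Aged libraries lay wholly above young ones for Lyz2, Cd68 and Trem2 at ZT18, where 5.39% of tested genes did so. Lyz2 was at 5.38, 2.69 and 3.44 RPKM in the 3 aged libraries of ZT18, against 1.85, 1.96, 1.69 and 2.62 RPKM in young ones. Trem2 was at 0.591, 0.781 and 0.578 RPKM there in aged, against 0.307, 0.426, 0.268 and 0.418 RPKM in young. At ZT14 the same separation held for Cx3cr1 and Trem2, beside 4.95% of tested genes, and at ZT10 for Ctss, beside 2.64%. It also held, without the pair, at ZT6 for Tyrobp and Lyz2, beside 3.37%, and still at ZT10 for Ctss, beside 5.38%.

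**Figure D3:**
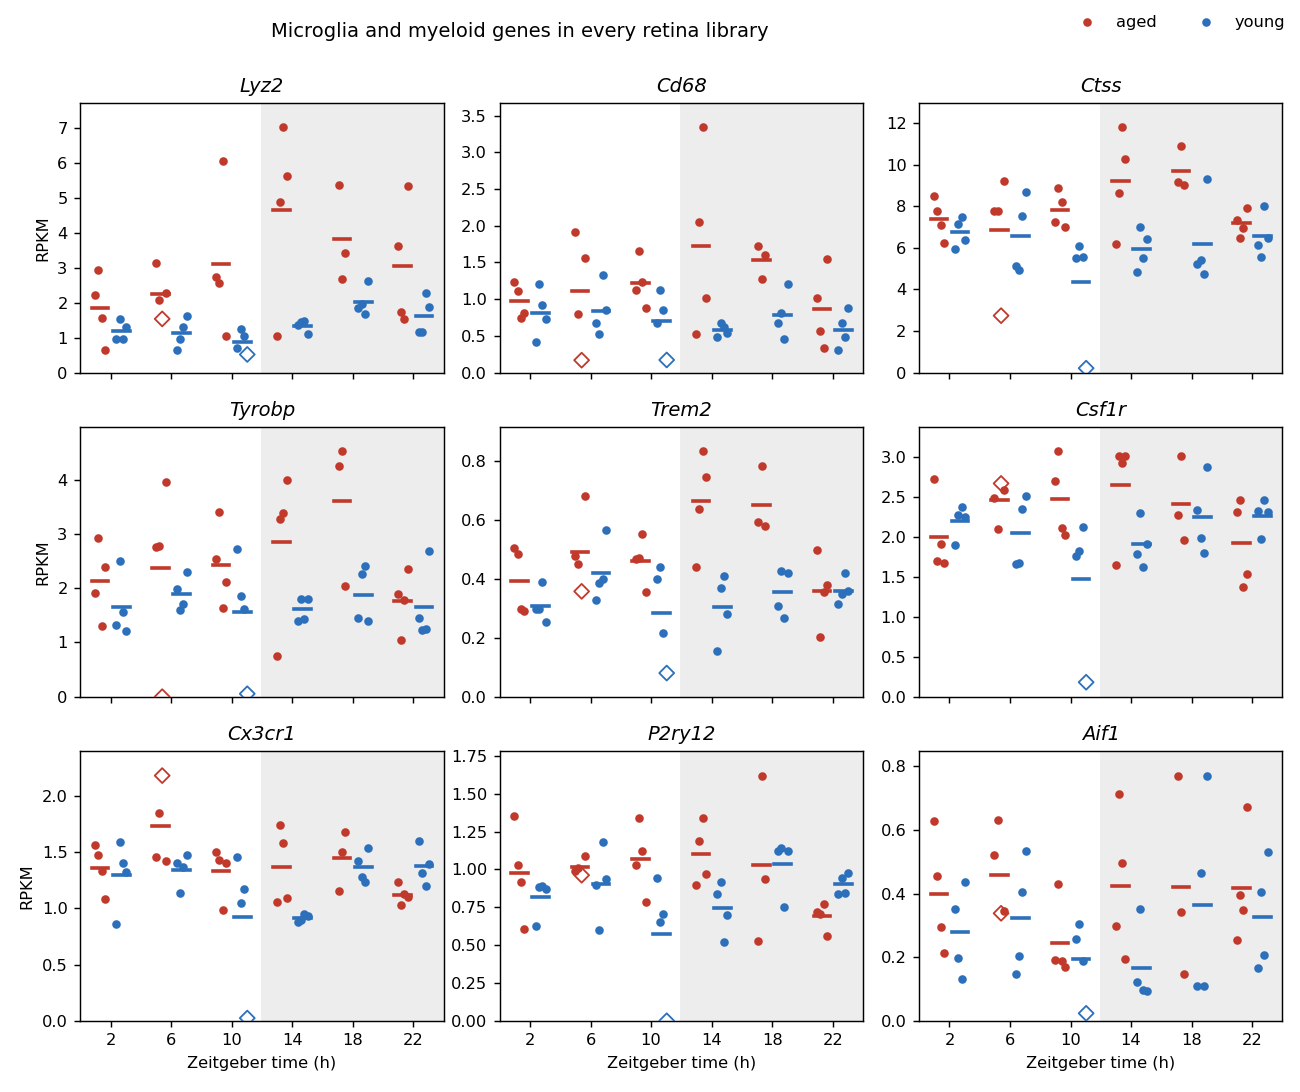
RPKM of the 9 genes in every library against zeitgeber time, with aged libraries (red) left of young libraries (blue), a bar at each group mean and grey shading for the dark phase. Open diamonds are aged ZT6 replicate 3 and young ZT10 replicate 4. Aged Lyz2 at ZT14 spreads from 1.06 to 7.03 RPKM over young values of 1.11 to 1.47 RPKM, and aged P2ry12 at ZT22 lies below all young values.

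**Figure D4:**
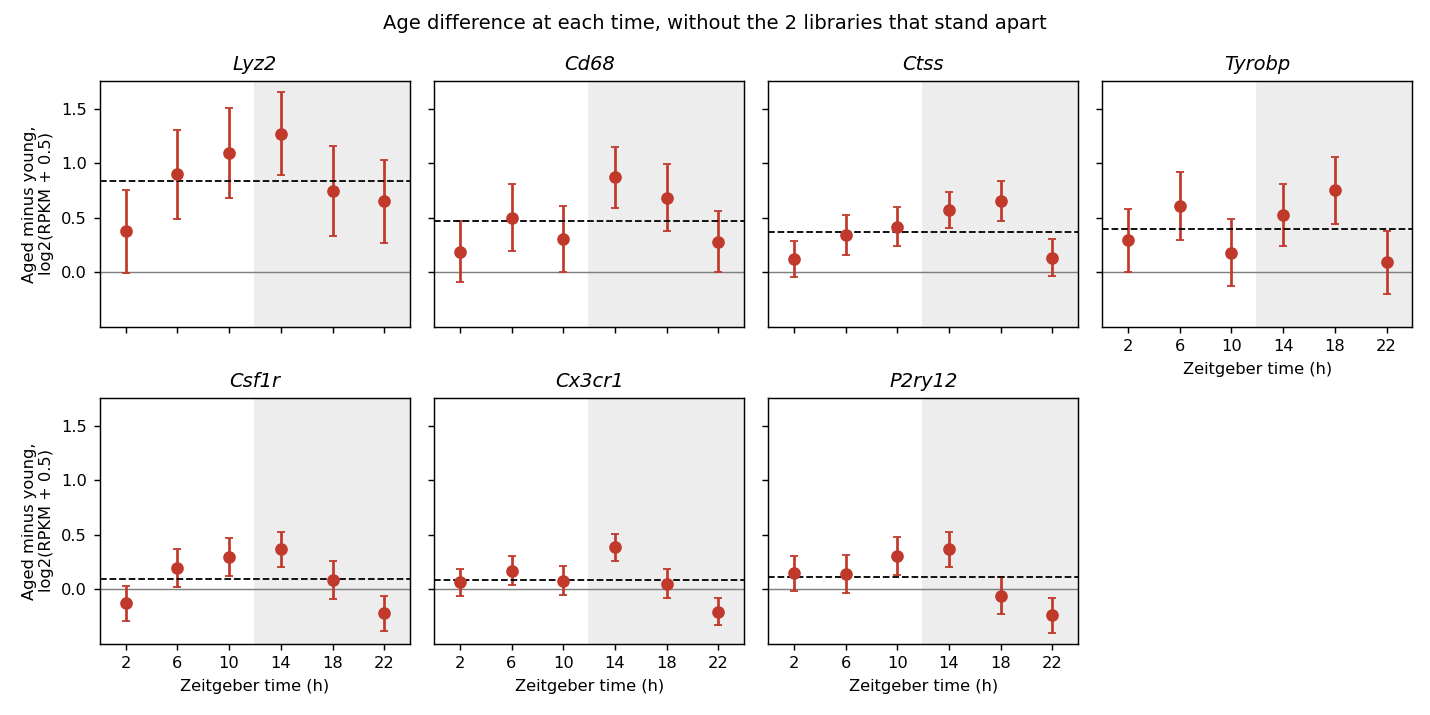
Aged minus young difference on log2(RPKM + 0.5) with SE at each zeitgeber time for the 7 tested genes, from group means without aged ZT6 replicate 3 and young ZT10 replicate 4. The dashed line is the difference over all times and grey shading the dark phase. Lyz2 is at 1.27 at ZT14 and 1.09 at ZT10, and Csf1r, Cx3cr1 and P2ry12 are below 0 at ZT22.

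With all libraries and no covariates, Lyz2 in young retinas was the 1 gene of the list with a 24 h rhythm that passed, where 19.7% of tested genes passed. Its young cosine had an amplitude of 0.37 ± 0.09 on the log2 scale (SE), a peak to trough ratio of 1.67 and a peak at ZT 19.46 ± 0.88 h, with an adjusted limma p of 0.0092. With tissue covariates that p was 0.218, and 0.235 with them and without the pair, where Cx3cr1 passed in young (0.035). After quantile normalization Cx3cr1, P2ry12 and Csf1r passed in young as well (adjusted p 0.0257, 0.035 and 0.014). The share of all genes that passed with covariates or after quantile normalization was not computed, so these calls cannot be set against it. In aged retinas, where 14.4% of genes passed, the Lyz2 amplitude was 0.49 ± 0.19 with a peak at 15.58 ± 1.47 h and an adjusted p of 0.176, or 0.044 without aged ZT14 replicate 1. The aged amplitude estimate is the larger, and its error is too. The test of a different rhythm gave an adjusted p of 0.606, and 1 gene of the table (0.00653%) passed it.

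The other 6 tested genes passed in neither age, and in aged retinas 0 of the 7 reached an unadjusted p under 0.05, where 30.1% of all genes did. At an unadjusted p under 0.05 the test of a different rhythm took Csf1r (0.00889), P2ry12 (0.0159) and Cx3cr1 (0.0368), where 7.75% of all genes reached that level. The values without the pair were 0.00847 for Csf1r, 0.0376 for P2ry12 and 0.0776 for Cx3cr1, with 0.0464 for Ctss, where 7.86% of all genes reached that level. The fitted Csf1r peak was then at 12.05 ± 1.67 h in aged and 22.54 ± 1.58 h in young, with amplitudes of 0.18 ± 0.07 and 0.12 ± 0.05 (log2, SE). In the fit with no filter and all libraries, Trem2 had an unadjusted limma p of 0.0177 for a rhythm in aged and 0.023 for a different rhythm. Aif1 had 0.676 and 0.887 there. The share of all genes in that fit was not computed for these tests. None of these passed with adjustment, so they are values and not calls.

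Other genes of these cells were read from lists. Of the 3 chains of C1q, the recognition molecule of the classical complement pathway, which retinal microglia make, C1qc rose with all libraries (0.47 ± 0.13 on the log2 scale, adjusted limma p 0.0215). All 3 rose without the pair of libraries, C1qa by 0.43 ± 0.09, C1qb by 0.35 ± 0.07 and C1qc by 0.43 ± 0.09. Their median difference was 0.424 with all libraries and 0.433 without the pair. Of 8 tested pan-myeloid genes, 2 rose: Cd14, the lipopolysaccharide co-receptor (0.48 ± 0.08, adjusted p 6.7e-05), and Mpeg1, a pore-forming protein of macrophages (0.34 ± 0.10, adjusted p 0.0278). Fcer1g, another activating adaptor, joined them without the pair (0.54 ± 0.11, adjusted p 0.000872), and none of the 8 fell. Of all tested genes, 2.41% rose with all libraries and 7.24% without the pair, and the lists below stand beside the same shares. In the fit with no filter and all libraries 0.989% of genes rose. Cybb, below 0.5 RPKM in every library, rose there by 0.12 ± 0.03 (adjusted limma p 0.0473), and Mpeg1 did not pass (adjusted p 0.0589).

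Of 7 tested homeostatic microglial genes 0 passed in limma with all libraries. Tmem119, Gpr34 and Siglech were higher at an unadjusted p under 0.05, a level that 7.06% of all tested genes reached upward and 8.61% downward. Tmem119 rose without the pair (0.22 ± 0.07, adjusted p 0.0287). Their median difference was 0.141 with all libraries and 0.084 without the pair. Of 13 tested genes of the damage-associated program 0 passed with all libraries in limma, and Gpnmb and Ctsb were higher at an unadjusted p under 0.05. Without the pair 1 rose, Ctsb, by 0.08 ± 0.02. The median of those 13 was -0.009, with and without the pair, and several of them, such as Apoe, Ctsd and Cd9, are made by other retinal cells too. Further genes of that list did not pass the filter. In the fit with no filter and all libraries, Clec7a rose by 0.27 ± 0.06 (adjusted limma p 0.00804). Itgax, below 0.5 RPKM in every library, rose there by 0.08 ± 0.02 (adjusted p 0.0254). Cst7, Ccl6, Ccl3 and Ccl4 did not pass in that fit, where 0.989% of genes rose.

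Among 9 tested ligands and signalling partners 0 passed in limma with all libraries, where Cst3 was higher and Tgfbr1 lower at an unadjusted p under 0.05. The ligands had differences of -0.15 ± 0.23 for Cx3cl1, the fractalkine gene of neurons, -0.01 ± 0.10 for Csf1 and 0.02 ± 0.14 for Il34. Without the pair, the TGF-beta receptor gene Tgfbr1 fell by 0.27 ± 0.04 and its signal transducer Smad3 by 0.28 ± 0.08, where 9.29% of all genes fell. Cst3, a secreted inhibitor of cathepsins that is abundant in the retina, rose by 0.19 ± 0.05. Of 2 tested genes of MHC class II presentation, Cd74, the invariant chain, rose without the pair (0.41 ± 0.11, adjusted p 0.0102), and H2-Ab1 did not pass.

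Most markers of other myeloid cells were below 0.5 RPKM in every library. So were the pan-myeloid genes Ptprc, Adgre1, Cybb and Irf8 and the homeostatic microglial genes Fcrls and Ltc4s. A level below 0.5 RPKM thus does not separate these cells from microglia. Of 12 genes of perivascular and infiltrating macrophages and monocytes, 9 stayed below 0.5 RPKM in every library, Mrc1, Cd163, Ms4a7 and Ccr2 among them, and their summed level ran from 1.13 to 4.73 RPKM in aged and from 0.505 to 6.19 RPKM in young. The single tested one, Lyve1, which lymphatic endothelium shares, had a median of 2.16 RPKM in aged and 2.92 RPKM in young libraries, and the young median is above that of each of the 9 genes except Ctss. It did not pass with all libraries and fell by 0.38 ± 0.09 without the pair. By means, Lyve1 made 2.15 of the summed 2.81 RPKM in aged and 2.88 of 3.36 RPKM in young. Of 10 neutrophil genes 7 stayed below 0.5 RPKM in every library, including Mpo, Elane and Ly6g, with sums of 0 to 1.38 RPKM in aged and 0 to 0.537 RPKM in young. Of 7 mast cell genes 6 did, all but Kit, which made most of the mean sum, with sums of 0.0665 to 0.781 RPKM in aged and 0 to 0.679 RPKM in young. Their part in the Lyz2 difference was not tested.

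Beside these differences stand those of genes listed for blood, pigment epithelium, lens and cornea. Whether such tissue was in the samples was not tested. Of 5 erythroid genes 1 rose with all libraries and 4 without the pair, and of 5 tested pigment epithelium genes 1 rose with all libraries and 3 without the pair. Of 7 tested lens genes 3 fell with all libraries, the gamma-crystallin genes Crygb, Crygc and Crygd, by 2.75 ± 0.60, 2.67 ± 0.57 and 2.59 ± 0.54 on the log2 scale (SE). The other 4 did not pass. In the fit with no filter and all libraries their differences were -0.07 for Cryaa, -0.147 for Mip, 0.216 for Bfsp1 and 0.111 for Bfsp2. Of 3 tested pigment cell genes 0 passed, with a median difference of -0.044 with all libraries and -0.02 without the pair. The cornea gene Aldh3a1 rose without the pair (0.82 ± 0.26, adjusted limma p 0.0228). The summed level of the 5 erythroid genes had a median of 315 RPKM in aged and 55.5 RPKM in young libraries of the dark times, against 59.2 RPKM in aged and 59.1 RPKM in young libraries of the light times. The sum of 6 pigment epithelium genes had medians of 60.9 RPKM in aged and 40.1 RPKM in young in the dark, and 17.2 RPKM in aged and 14.7 RPKM in young in the light. With the mean log2 levels of the blood, pigment epithelium and lens lists as covariates, the Lyz2 difference was 0.69 with an adjusted limma p of 0.0224, and that of Cd68 was 0.30 with an adjusted p of 0.437. With those covariates and without the pair of libraries, Lyz2 alone passed (0.64, adjusted p 0.0245), and Ctss was at 0.25 with an adjusted p of 0.0598. The Lyz2 difference was 0.79 over the light times alone (adjusted p 0.0722) and 0.90 over the dark times alone (adjusted p 0.0216).

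Within groups of the same age and time, retinas that held more of 1 of the 9 transcripts tended to hold more of the others. Each library's deviation from its group mean was correlated over the 36 pairs of genes, with permutation p-values from 100000 resamples adjusted over the 36. These p-values made no allowance for the subtracted group means, which leave fewer free values than libraries. They are thus too small, and the numbers of pairs given as passing are upper limits. Pairs near the threshold, such as those at r 0.32, may not pass with that allowance, which was not tested. With all 47 libraries Pearson's r ran from 0.14 to 0.79 with a median of 0.46, and the pair of libraries that stand apart carried part of that. Over the other 45 libraries r ran from 0.09 to 0.69 with a median of 0.38, and 25 pairs passed by r and 21 by Spearman's rho. Other genes went together in these libraries too: over all pairs of tested genes the median r was 0.05, and 21.4% of them had an r at least as high as the lowest of the 25 (0.32), with no test of the difference. The strongest pairs were Trem2 with Ctss (r 0.69, rho 0.69, permutation p 1e-05 each, the smallest possible) and Cd68 with Lyz2 (r 0.68, permutation p 2e-05; rho 0.65, permutation p 1e-05). Leaving out the 2 libraries farthest on the first gene gave r of 0.63 and 0.57. Adjusted p was 0.00018 by r for both pairs.

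Some pairs were close and others were not. Lyz2 went with Ctss at r 0.60 and with Trem2 at r 0.56, but with Cx3cr1 at r 0.09 (rho 0.05, permutation p 0.538 and 0.761) and with P2ry12 at r 0.18. Cx3cr1 went with P2ry12 at r 0.52 (rho 0.50, permutation p 0.00026 and 0.00052), and P2ry12 with Csf1r at r 0.56. Csf1r went with Ctss at r 0.68. These values describe the libraries, and the part of depth or dissection in them was not tested. Of 27 relations of the 9 genes with the blood, pigment epithelium and lens levels, 1 passed over the 45 libraries, Csf1r with pigment epithelium (r 0.59, rho 0.55, permutation p 5e-05 and 0.00018, adjusted 0.00135 and 0.00486, r 0.50 without the 2 farthest libraries). With all 47 libraries that relation had r 0.41 with an adjusted p of 0.0918. The permutation p-values of these relations and pairs are too small for the reason given above, the subtracted group means.

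**Figure D5:**
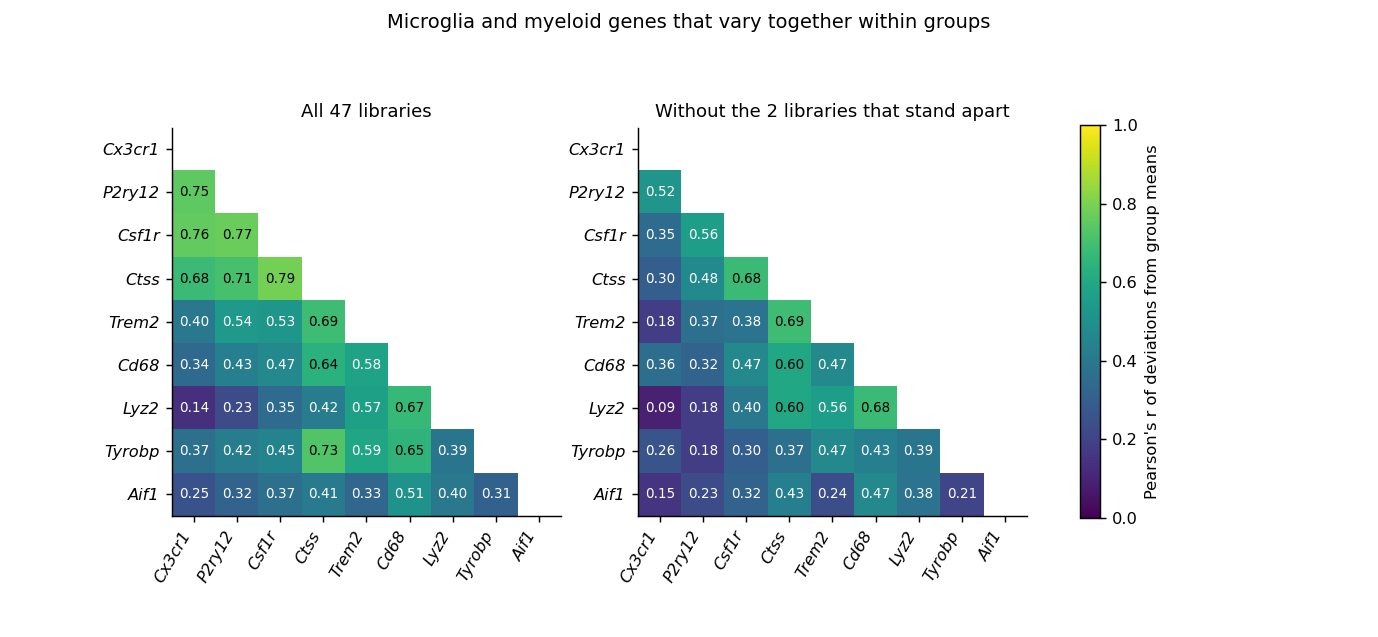
Pearson's r between deviations of the 9 genes from the means of their age and time group, over all 47 libraries (left) and over the 45 without aged ZT6 replicate 3 and young ZT10 replicate 4 (right), with colour from 0 to 1. Over the 45 libraries Trem2 with Ctss reaches 0.69 and Cd68 with Lyz2 0.68, while Cx3cr1 with Lyz2 is at 0.09.

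Across all named tested genes, those whose deviations were most like the mean of the 9 over the 45 libraries were C1qa (r 0.75), Mpeg1 (0.72), Pcp4l1 (0.68), Plvap (0.68), Ninj1 (0.63) and Wnt6 (0.63), with Spata13, Spcs3 and Cd302 (0.61 each). C1qa and Mpeg1 were on the microglial and myeloid lists. Over all 47 libraries the first was Tmem59l (0.85), with C1qa at 0.84, and the library young ZT10 replicate 4 weighs on that order. By single gene over the 45 libraries, the 2 most like were Sdsl (r 0.72) and Dok7 (0.70) for Cx3cr1, Laptm5 (0.76), a lysosomal membrane protein of blood cells, and Tes (0.73) for P2ry12, and Ephx1 (0.83) and Timp3 (0.81) for Csf1r. They were Lmo2 (0.62) and Nsrp1 (0.61) for Trem2, Pcp4l1 (0.63) and Isg15 (0.56) for Tyrobp, and Uqcrc2 (0.74) and C1qa (0.73) for Ctss. For Cd68 they were Mpeg1 (0.68) and Gpnmb (0.61), for Lyz2 Csrp3 (0.65) and C1galt1 (0.64), and for Aif1 Clcn4 (0.62) and Extl2 (0.61). These are descriptions over libraries, with no test.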

How the data were processed

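Per the labels' protocols, dissection was under dim red light and poly(A) RNA was copied from random hexamers. HISAT2 2.2.1, Subread 2.0.6, FastQC 0.23.4 and the build GRCm39 are named in the submitters' processing notes, with no roles. The authors deposited RPKM values with 1 column per library. Of these columns 47 matched a sample and 1 did not and was not used. Symbols came from GENCODE M21 for 51884 identifiers, and 5296 had none; that annotation is of an earlier build, so it served for names, exon lengths and overlaps only.

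RPKM are not counts, so limma 3.58.1 in R 4.3.3 was run on log2(RPKM + 0.5) for the 15321 genes with at least 0.5 RPKM in 12 libraries, with a trended eBayes prior and Benjamini-Hochberg adjustment over all of them. A difference on this scale understates the fold of low genes. Age was tested with time as a factor, at each time from 12 group means, and for its interaction with time. Rhythms were tested with 24 h cosine and sine terms in each age and their interaction with age. Called means an adjusted p under 0.05. Reads were recovered from the RPKM with exon lengths, where needed a fitted length that made values whole within 0.01, for 37323 genes; a fitted length builds wholeness in. Intervals and errors of counting cover counting error only. The fits were tested on simulated data.

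The 9 genes and the other lists were chosen with earlier results of these data known, as was leaving out 2 libraries together. By rule, the text names all 9, up to 4 genes per other list with an adjusted p under 0.05 (the blood and pigment epithelium lists are given by counts), the 10 most like the mean of the 9 and the 2 most like each; 1 of those 10 is not reported here, and other genes named were chosen after their values were seen. Alternatives were other pseudocounts, filters and scalings, array weights, a replicate block, covariates from tissue markers, light or dark times alone, voom on recovered reads and the omission of each library. Recovered reads of all 69 pairs of libraries within a group differed beyond sampling noise (chi-square per degree of freedom of at least 7.01 over genes with 20 summed reads). Each library is taken as 1 mouse; where that is not so, p-values measure only the spread between samples.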

Additional observations from a re-analysis of the deposited data

Results flagged for a closer look

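In 8 of 99 groups of 4 libraries checked over the 9 genes, 1 library lay far from the other 3 by Dixon's criterion, where chance gives about 1 in 20. Of the 8, 1 is in either of the libraries that stand apart: Ctss in young ZT10 replicate 4 was at 0.212 RPKM, against 5.51 to 6.10 RPKM in the other 3. Csf1r in aged ZT14 replicate 1 was at 1.65 RPKM, against 2.92 to 3.01 RPKM in the other 3. Ctss in young ZT18 replicate 4 was at 9.33 RPKM, against 4.76 to 5.40 RPKM. P2ry12 was low in young ZT2 replicate 1 (0.628 RPKM, against 0.873 to 0.893 RPKM) and in young ZT18 replicate 3 (0.753 RPKM, against 1.12 to 1.14 RPKM). Tyrobp in young ZT22 replicate 4 was at 2.69 RPKM, against 1.23 to 1.45 RPKM. Aif1 was high in aged ZT10 replicate 2 (0.429 RPKM, against 0.169 to 0.191 RPKM) and in young ZT14 replicate 2 (0.350 RPKM, against 0.0921 to 0.121 RPKM), both on few reads.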

How the results depend on the processing

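No age difference of a single gene over the times of a fit changed sign in 448 values under an alternative. Of these, 396 kept their side of the threshold. Differences at single times were not among them, and some changed sign. At ZT6 that of Tyrobp was -0.11 with all libraries and 0.61 without the 2 libraries that stand apart. At ZT18 that of P2ry12 was -0.06 with all libraries and 0.41 with array weights. The count of the 7 tested genes called for age was 2 with all libraries. It was 1 with a pseudocount of 0.1, with a filter of 1 RPKM in 24 libraries, with limma voom on recovered reads, with tissue covariates (also when aged ZT6 replicate 3 and young ZT10 replicate 4 were left out) and at a fold over 1.5, and 0 over light times only. It was 4 with array weights and without those 2 libraries together, and 4 with a pseudocount of 0.1 without them. With no filter, which adds Trem2 and Aif1 to the test, it was 5 without them, Trem2 among the 5. It ran from 1 to 4 when single libraries were left out, 4 being without aged ZT6 replicate 3. With the replicate block it was 1, since Cd68 had an adjusted p of 0.0507, and 4 with the block and without the 2 libraries. Of 23 same-numbered pairs of an aged and a young library at the same time, 10 correlated above 0.1, with a range of -0.486 to 0.428. Pairs with different numbers were not compared, so these values do not show whether the replicate numbers pair samples.

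Calls at single times, 0 with all libraries, were 4 with array weights (P2ry12, Csf1r, Tyrobp and Ctss at ZT18), 1 with no filter (Trem2 at ZT14) or with the replicate block (Ctss at ZT18) without the 2 libraries, and 0 to 1 when single libraries were left out, 1 being Lyz2 at ZT14 without aged ZT14 replicate 1. Genes rhythmic in young, 1 with all libraries, were 4 after quantile normalization and 0 with tissue covariates, and genes rhythmic in aged ran from 0 to 1, again 1 without aged ZT14 replicate 1. For these calls under alternatives, the share of all genes was computed only with no filter. The causes were not tested. Median-ratio scaling and quantile normalization each moved the median of all genes by 0.015 on the log2 scale. Depth limits Aif1, with a median of 21 reads in aged and 11.5 in young libraries.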

Other observations

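Some listed genes outside the 9 passed the rhythm test in 1 age, where 14.4% of all tested genes passed in aged and 19.7% in young. The genes below are examples, and the number of listed genes that passed is not given. Tmem119, a microglial membrane protein, had an aged amplitude of 0.27 ± 0.06 on the log2 scale (SE) with a peak at 14.42 h and an adjusted limma p of 0.0128, against 0.11 ± 0.12 and an adjusted p of 0.841 in young. Cd74 had an aged amplitude of 0.49 ± 0.12 with a peak at 17.33 h and an adjusted p of 0.0157, against 0.14 ± 0.11 and 0.672 in young. Fcgr3, an activating Fc receptor, passed in young (0.37 ± 0.10, adjusted p 0.0243) and had 0.31 ± 0.10 and 0.0859 in aged. The test of a different rhythm gave an adjusted p of 0.606 for Tmem119 and Cd74 and 0.83 for Fcgr3, so none was shown to differ between ages. The lysosomal tetraspanin Cd63 passed in both ages, with peaks at 20.17 h in aged and 21.32 h in young.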
